A study of Mus musculus with 8 samples.

Results

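The canonical, clustered histone genes were examined in C3H10T1/2, a mouse line of mesenchymal stem cell character whose cells can be driven to become adipocytes. The members were all genes whose symbol begins with Hist1h, Hist2h, Hist3h or Hist4h in the deposited expression tables, which gave 67 genes out of 41325 listed. RNA was sequenced from 8 libraries, with 1 library for each of 4 stable lines on day 0 and day 5. The knockdown lines carried pLKO.1 vectors expressing an shRNA against Kdm4d (shKDM4D), Nfib (shNFIB) or Mll1 (shMLL1, gene symbol Kmt2a). The control line is labelled shControl with a WT genotype, its vector is not given in the sources used here, and all lines were given the same adipogenic treatment. Day 0 was the point of induction in post-confluent cells, and induction used insulin, dexamethasone and isobutylmethylxanthine. The knockdown lines came from puromycin-resistant clones, so a difference between lines cannot be told apart from a difference between clones. Since each condition had 1 library, no p-value is given, and every interval below is an exact 95% interval for the ratio of read counts that covers counting error only.

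Histones package DNA into nucleosomes, in which pairs of H2A, H2B, H3 and H4 form the core and H1 binds the linker DNA. Most of their genes lie in clusters and are transcribed in S phase, when new DNA must be packaged. Their messages usually lack introns and a poly(A) tail and end just after a conserved stem-loop that is bound by the stem-loop binding protein, Slbp. Some of these genes can also make longer, polyadenylated messages, which are known from cells that have left the cycle or are differentiating.

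Of the 67 genes, 18 encode H2A, 18 H2B, 13 H4, 12 H3 and 6 H1. They lie on chromosome 13 (Hist1), 3 (Hist2), 11 (Hist3) and 6 (Hist4h4) of GRCm38. The stem-loops of 9 members are shown because the members are grouped below by where their annotated transcripts end relative to this element. Capitals mark the 16 bases of the stem-loop, with 5 bases on each side, read 5′ to 3′ on the coding strand from GENCODE transcripts.
Hist1h1c (chr13:23739512-23739527, plus strand): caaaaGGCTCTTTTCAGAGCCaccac
Hist2h2aa1 (chr3:96246032-96246047, plus strand): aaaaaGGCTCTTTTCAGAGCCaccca
Hist1h2ab (chr13:23751572-23751587, plus strand): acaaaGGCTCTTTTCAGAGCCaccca
Hist1h4h (chr13:23531458-23531473, plus strand): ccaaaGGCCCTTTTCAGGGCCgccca
Hist1h4c (chr13:23698089-23698104, minus strand): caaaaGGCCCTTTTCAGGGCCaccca
Hist1h4i (chr13:22040966-22040981, minus strand): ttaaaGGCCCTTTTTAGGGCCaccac
Hist1h3c (chr13:23745047-23745062, minus strand): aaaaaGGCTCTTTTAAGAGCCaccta
Hist1h3g (chr13:23535889-23535904, plus strand): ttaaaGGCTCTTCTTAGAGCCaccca
Hist2h2ac (chr3:96220418-96220433, minus strand): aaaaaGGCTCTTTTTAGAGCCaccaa
The form in Hist1h1c, Hist2h2aa1 and Hist1h2ab was the most common and was shared by 26 members of the H1, H2A, H2B and H3 classes. The form in Hist1h4h and Hist1h4c was found in 7 members, all of class H4, and that of Hist1h3c in 6 members. A stem-loop of this kind followed the coding sequence in 16 of 22433 protein-coding genes other than the 67 members, or 0.0713%. Clustered histone genes missing from the expression tables were not set apart from these other genes.

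The annotated transcript ran more than 100 bases past the stem-loop in 23 members, such as Hist1h1c (840 bases) and Hist1h2ac (2010 bases). It ended within 100 bases of the stem-loop in 22 members, such as Hist1h2ab (11 bases) and Hist1h3g (47 bases). A further 13 annotated transcripts stopped at the stop codon, 8 continued but held no stem-loop, and 1 gene had transcripts of different kinds. In RefSeq, by contrast, 43 of 46 members with a stem-loop ended 0 to 15 bases past it. These are properties of the annotation, and the tables cannot show which 3′ end a read came from.

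The promoters of 3 members are shown since they stand for genes that rose in every line (Hist1h2ac and Hist1h4h) and for one that fell in shControl (Hist1h2ab). Each covers 250 bases before the RefSeq start and 50 after it on GRCm38.p6. Capitals mark the CCAAT box and the H2B octamer (ATGCAAAT), searched on both strands, and the TATAAA element, searched on the printed strand only. Hist1h4h held none of these motifs.
Hist1h2ac (chr13:23683910-23684209, minus strand): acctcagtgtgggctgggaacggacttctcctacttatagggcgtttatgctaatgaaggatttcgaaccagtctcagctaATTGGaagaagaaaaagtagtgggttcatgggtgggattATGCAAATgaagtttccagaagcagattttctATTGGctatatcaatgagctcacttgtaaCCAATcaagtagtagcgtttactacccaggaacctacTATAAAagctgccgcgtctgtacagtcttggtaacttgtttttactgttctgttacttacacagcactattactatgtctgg
Hist1h4h (chr13:23530794-23531093, plus strand): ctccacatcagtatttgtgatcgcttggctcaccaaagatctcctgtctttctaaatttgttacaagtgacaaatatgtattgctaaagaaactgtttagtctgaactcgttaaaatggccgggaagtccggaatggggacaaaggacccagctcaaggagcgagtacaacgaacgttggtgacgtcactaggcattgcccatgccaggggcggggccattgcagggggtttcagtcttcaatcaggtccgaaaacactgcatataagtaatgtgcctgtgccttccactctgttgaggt
Hist1h2ab (chr13:23750838-23751137, plus strand): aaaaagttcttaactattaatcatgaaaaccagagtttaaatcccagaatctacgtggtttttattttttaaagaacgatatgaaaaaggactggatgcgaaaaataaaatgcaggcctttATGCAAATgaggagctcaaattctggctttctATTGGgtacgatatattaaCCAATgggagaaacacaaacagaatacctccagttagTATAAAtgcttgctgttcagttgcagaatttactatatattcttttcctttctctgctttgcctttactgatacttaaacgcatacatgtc
Hist1h2ac and Hist1h2bc, the most abundant member, are divergent neighbours with 250 bases between their annotated starts, so the printed Hist1h2ac promoter holds the interval between them. CCAAT was found in 53 of 62 members' promoters (85.5%) against 37.3% of the 32788 other promoters. It was present in every H1, H2A, H2B and H3 promoter in the table but in 3 of 12 H4 promoters. TATAAA was found in 48.4% of the members' promoters against 8.24% of the others, and the octamer in 21% against 1.7%. The octamer occurred in 7 of 18 H2A and 6 of 16 H2B promoters and in no H1, H3 or H4 promoter.

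The libraries held 15800000 to 38200000 mapped reads, as recovered from the tables, and 2450 to 40041 reads on the members. Nfib stood at 9.92 RPKM (reads per kilobase of exon, scaled to the mapped reads of the library) in shControl and 2.31 in shNFIB on day 0, and at 17.0 and 3.38 on day 5. Kmt2a stood at 5.17 RPKM in shControl and 2.00 in shMLL1 on day 0, and at 5.27 and 1.63 on day 5. Kdm4d had 1 to 15 reads a library, so its level could not check the shKDM4D label on day 0, while on day 5 it had 4 reads in shKDM4D and 13 in shControl. Of the cell markers, Col1a1 was between 530.0 and 953 RPKM, Epcam was listed at 0 throughout and Ptprc was at most 0.00559. The 4 leukocyte markers summed to at most 1.65 RPKM and the 3 epithelial ones to at most 1.68, nearly all of it from Cd68 and Cdh1, and the 3 endothelial ones to at most 0.147. Thy1 was at 25.0 and 22.6 RPKM in shControl but at most 0.139 in shKDM4D and shNFIB, so the lines also differed in genes that were not targeted. The summed RPKM of 7 adipocyte markers rose from 10.9 to 777 in shControl, from 7.42 to 38.6 in shKDM4D, from 7.4 to 12 in shNFIB and from 4.09 to 12.3 in shMLL1. Reads on an annotated ribosomal RNA gene and a gene overlapping it made up 7.95 to 10.5% on day 0 and 3.07 to 3.62% on day 5, and their part in the day differences was not tested.

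Together the reads on the 67 genes rose at day 5 in all 4 lines, and most in shMLL1. Whether poly(A) RNA was selected or primed is not given in the sources used here. Messages without a poly(A) tail may thus be missed, and the sums need not follow total histone RNA. The summed RPKM of the 67 genes was 185 on day 0 and 462 on day 5 in shControl, 176 and 487 in shKDM4D, 148 and 533 in shNFIB, and 169 and 980 in shMLL1. The 4 day 0 libraries lay close together, and the shMLL1 library of day 5 stood apart from the other day 5 libraries. As a share of mapped reads, the increase was 2.77-fold in shControl (log2 1.47, interval 1.42 to 1.52), 3.32-fold in shKDM4D, 4.48-fold in shNFIB and 6.88-fold in shMLL1 (log2 2.78, interval 2.74 to 2.82). In bulk RNA, a change in the number of cells that express a gene and a change in RNA per cell cannot be told apart.

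**Figure D1:**
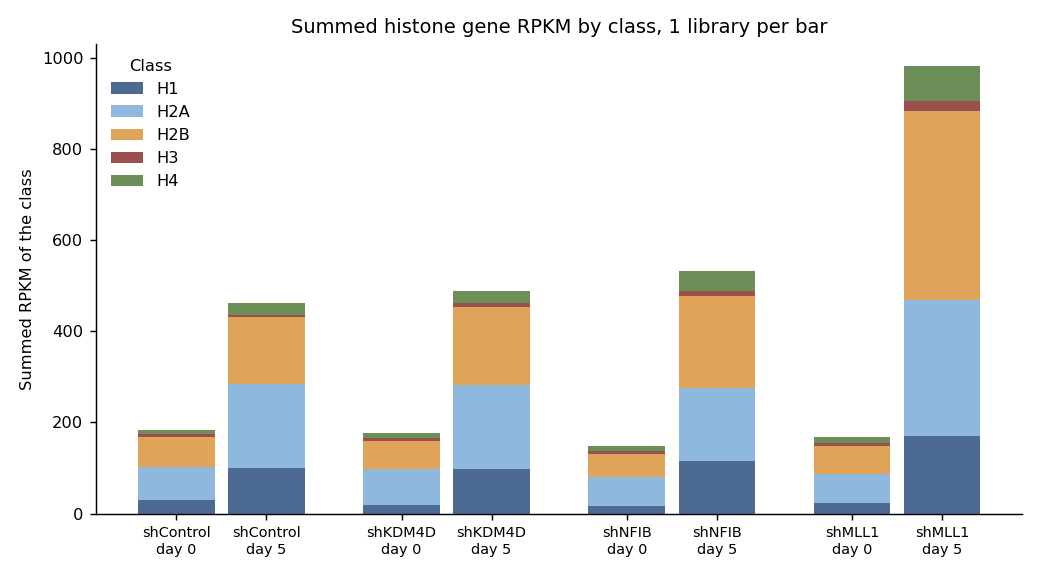
Summed RPKM of the histone genes of each class (y axis) in each of the 8 libraries (x axis), with 1 library per bar and no error bar. The totals lie between 148 and 185 on day 0 and between 462 and 980 on day 5, with shMLL1 the highest.

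By class, H2A and H2B took the largest share of the level and H3 the smallest. H1 rose from 29.5 to 101 RPKM in shControl and from 23.9 to 171 in shMLL1. H2B rose from 64.5 to 146 RPKM in shControl and from 61.6 to 414 in shMLL1, where its gain was the largest of the 5 classes. H4 went from 9.37 to 25.7 RPKM in shControl and from 13.7 to 76.3 in shMLL1. The H3 genes were the exception: they stood at 7.56 and 5.48 RPKM in shControl, a read ratio within counting error (log2 -0.13, interval -0.50 to 0.23), yet went from 6.55 to 22.4 in shMLL1 (log2 1.77, interval 1.56 to 1.99). Thus the sum moved with a few H1, H2A and H2B genes, and the 4 members of highest mean RPKM held 50.7 to 61.1% of the members' reads on day 0 and 71.9 to 79.4% on day 5. Without these 4, the summed RPKM was 86.1 and 84.7 in shControl and 95 and 98.7 in shKDM4D on the 2 days, but 81.6 and 147 in shNFIB and 92.6 and 278 in shMLL1. As a share of mapped reads, which gives longer genes more weight, these 63 genes rose 1.46-fold in shControl (log2 0.55, interval 0.46 to 0.64), 1.69-fold in shKDM4D, 2.53-fold in shNFIB and 4.41-fold in shMLL1.

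Hist1h2bc, an H2B gene whose annotated exons of 1156 bases held no stem-loop, was the most abundant member in every library. Its RPKM on day 0 and day 5 was 49.2 and 130 in shControl, 45.2 and 152 in shKDM4D, 34.4 and 179 in shNFIB, and 44.5 and 360 in shMLL1. It rose in each line, by 2.64-fold in shControl (log2 1.40, interval 1.31 to 1.49) and by 8.07-fold in shMLL1 (log2 3.01, interval 2.95 to 3.08). Hist1h1c, which encodes the linker histone H1.2, was at 21.9 and 94.0 RPKM in shControl, 12.3 and 89.2 in shKDM4D, 9.07 and 103 in shNFIB, and 16.7 and 150 in shMLL1. It rose by 4.3-fold, 7.27-fold, 11.3-fold and 8.98-fold in that order, so that its lowest day 0 level, in shNFIB, went with the steepest rise. Only 6.66% of its 75-base windows occurred in another gene, which makes it the best resolved of the abundant members.

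Hist2h2aa1 and Hist2h2aa2 are near-identical H2A genes on chromosome 3. Hist2h2aa2 was at 21.5 and 99.8 RPKM in shControl, 14.3 and 110 in shKDM4D, 16.4 and 67.3 in shNFIB, and 11.3 and 120 in shMLL1. Hist2h2aa1 was at 5.96 and 54.3 RPKM in shControl, 9.26 and 37.3 in shKDM4D, 6.77 and 36.7 in shNFIB, and 3.89 and 71.9 in shMLL1. Because 88.9 to 100% of their windows were shared with other genes, their reads were also summed, which gave 395 and 1634 reads in shControl, 254 and 1728 in shKDM4D, 236 and 904 in shNFIB, and 315 and 4016 in shMLL1. The sum rose in each line, from 4.51-fold in shNFIB to 12.8-fold in shMLL1. Unlike Hist1h2bc, the pair was lower in shNFIB than in shControl at day 5 (log2 -0.57, interval -0.69 to -0.45).

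**Figure D2:**
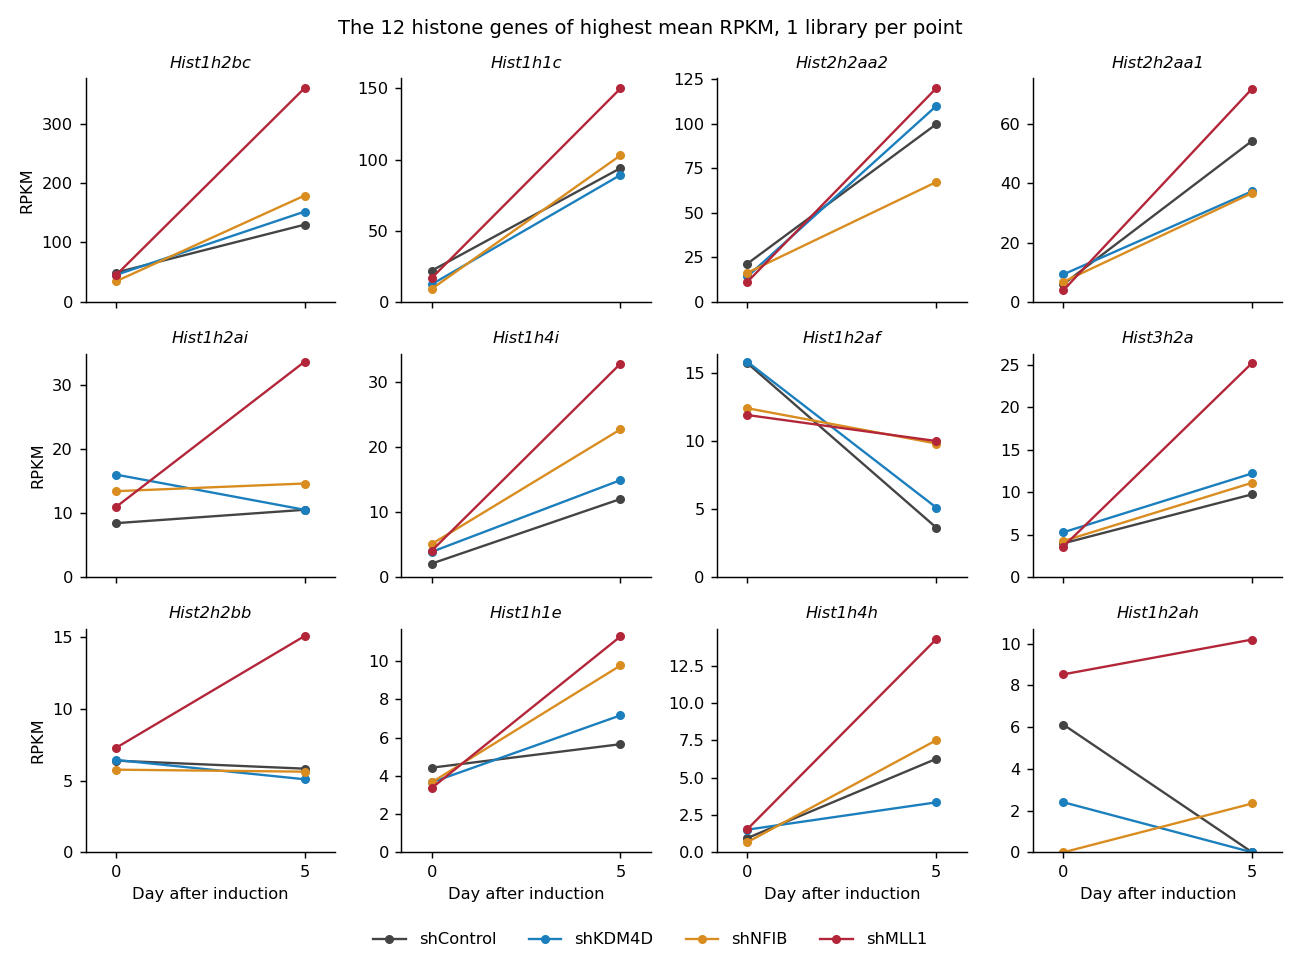
RPKM (y axis, a scale per gene) on day 0 and day 5 (x axis) for the 12 histone genes of highest mean RPKM, with a point per library, a colour per line and no replicates. Hist1h2bc rises from 34.4 to 49.2 on day 0 to 130 to 360 on day 5, whereas Hist1h2af falls in shControl from 15.7 to 3.63.

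Among the H4 genes, Hist1h4i and Hist1h4h rose in every line. Hist1h4i was at 2.07 and 12 RPKM in shControl, 3.87 and 14.9 in shKDM4D, 5.08 and 22.7 in shNFIB, and 4.03 and 32.8 in shMLL1. Hist1h4h was at 0.958 and 6.27 RPKM in shControl, 1.52 and 3.35 in shKDM4D, 0.684 and 7.52 in shNFIB, and 1.56 and 14.3 in shMLL1. Both were highest in shMLL1 at day 5, and Hist1h4i and Hist1h4h shared 22.4 and 42.4% of their windows with other genes. Hist2h4 showed the same direction from few day 0 reads, at 15, 3, 6 and 13 in shControl, shKDM4D, shNFIB and shMLL1 and 27, 56, 37 and 160 on day 5, and it had no shared window. Hist1h4c rose from 0, 1, 3 and 2 reads to 14, 15, 25 and 74, so that its increase in shControl was at least 6.43-fold when 3 reads stand for 0.

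Hist3h2a, an H2A gene on chromosome 11 that shares 30.6% of its windows with the overlapping gene Trim17, was at 3.97 and 9.74 RPKM in shControl, 5.27 and 12.2 in shKDM4D, 4.24 and 11.1 in shNFIB, and 3.59 and 25.2 in shMLL1. It rose by 2.45-fold, 2.32-fold, 2.63-fold and 7.03-fold. Hist1h1e, which encodes the linker histone H1.4, was at 4.43 and 5.66 RPKM in shControl, 3.66 and 7.17 in shKDM4D, 3.66 and 9.78 in shNFIB, and 3.36 and 11.3 in shMLL1. Its ratio passed 2-fold in shNFIB and shMLL1 only, with log2 0.35 (interval 0.07 to 0.63) in shControl. Hist2h2bb, an H2B gene, was at 6.40 and 5.84 RPKM in shControl, 6.45 and 5.10 in shKDM4D, 5.77 and 5.63 in shNFIB, and 7.28 and 15.1 in shMLL1, so it passed 2-fold in shMLL1 alone. It shares 49.8% of its windows, all of them with the overlapping gene Gm42743. Hist1h2bq, an H2B gene, went from 18 to 64 reads in shControl (log2 2.29, interval 1.52 to 3.14), and summed with its near-copy Hist1h2br it rose 2.99-fold in shControl and 11.3-fold in shMLL1.

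Other members fell in shControl. Hist1h2af, an H2A gene, was at 15.7 and 3.63 RPKM in shControl, 15.8 and 5.10 in shKDM4D, 12.4 and 9.81 in shNFIB, and 11.9 and 9.99 in shMLL1. It fell 4.33-fold in shControl (log2 -2.11, interval -2.75 to -1.53) and 3.09-fold in shKDM4D, and its log2 ratio was -0.33 (interval -0.82 to 0.15) in shNFIB and -0.25 (interval -0.57 to 0.07) in shMLL1. Hist1h1b, which encodes the linker histone H1.5 and had no shared window, was at 2.43 and 0.279 RPKM in shControl, 2.20 and 1.12 in shKDM4D, 3.03 and 1.70 in shNFIB, and 2.64 and 4.62 in shMLL1. It fell 8.71-fold in shControl, from 48 to 4 reads, and its ratio was above 0 in shMLL1 (log2 0.81, interval 0.39 to 1.24). Hist1h2ab had 31 and 2 reads in shControl, 24 and 4 in shKDM4D, 14 and 18 in shNFIB, and 45 and 49 in shMLL1. Unlike Hist1h1b, Hist1h2af and Hist1h2ab shared 70.5 and 55.4% of their windows with other genes. These 3 genes were named for their low ratios in shControl, so their order among the lines is a description only.

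Several members could not be followed singly because much of their sequence occurs in other genes. How reads matching several genes were assigned is not given, so a shift of reads between copies was not tested. Hist1h2ah had 66 and 0 reads in shControl, 19 and 0 in shKDM4D, 0 and 15 in shNFIB, and 132 and 158 in shMLL1, and 90% of its windows were shared. Hist1h2ap had 33, 13, 40, 0, 35, 1, 45 and 48 reads in library order while Hist1h2ao had 16, 0, 0, 15, 0, 27, 0 and 0, so that 1 copy took nearly all the reads in most libraries. Their sum was 49 and 13 in shControl, 40 and 15 in shKDM4D, 35 and 28 in shNFIB, and 45 and 48 in shMLL1. Likewise Hist1h4n was at 0 reads in shControl on day 0, where its copy Hist1h4m had 23. The sum of these 2 genes had a log2 ratio of 0.03 (interval -0.97 to 0.99) between the days in shControl. Hist2h3c1 and Hist2h3c2, H3 genes on chromosome 3, went from 10 to 0 and from 53 to 54 reads in shControl. Summed, the 9 Hist1 H2A genes that shared at least 50% of their windows, including Hist1h2af, Hist1h2ah and Hist1h2ai, had 413 and 128 reads in shControl, 362 and 168 in shKDM4D, 251 and 238 in shNFIB, and 609 and 981 in shMLL1. Their log2 ratio was -1.23 (interval -1.52 to -0.94) in shControl, -1.25 (interval -1.53 to -0.99) in shKDM4D, 0.16 (interval -0.10 to 0.42) in shNFIB and 0.69 (interval 0.54 to 0.84) in shMLL1.

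Of the 67 members, 44 had a mean of at least 10 reads a library and were counted. A member could pass this minimum through the libraries in which it was high, so the counts describe these 44 and are not counts over all members. In shControl, 15 of the 44 were more than 2-fold higher at day 5 (34.1%) and 11 more than 2-fold lower (25%), against 15.1% and 9.17% of the 12854 genes with the same mean. After quantile normalization, which the study's methods name, these counts were 12 and 18. The shares of all genes under that normalization are not given here, while their median log2 ratio in shControl moved from 0.06 to -0.06. In shKDM4D, 16 were higher and 12 lower, against 14.9% and 9.03% of all genes tested. In shNFIB, 27 were higher and 3 lower, against 14.8% and 5.38%, and quantile normalization gave 24 and 7. In shMLL1, 33 were higher and 1, Hist2h3c1, was lower, against 23.1% and 7.18%. Summed with its near-copy Hist2h3c2, that gene rose 4.53-fold in shMLL1, from 85 to 384 reads (log2 2.18, interval 1.84 to 2.53). The median log2 ratio of the 44 was 0.35, 0.36, 1.52 and 1.99 in shControl, shKDM4D, shNFIB and shMLL1, beside 0.06, 0.05, 0.12 and 0.21 over all genes tested. Thus the members split both ways in shControl and shKDM4D but mostly rose in shNFIB and shMLL1.

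Over the 4 lines, 12 members were more than 2-fold higher at day 5 in each: Hist1h1c, Hist1h2ac, Hist1h2bc, Hist1h2be, Hist1h2bq, Hist1h4c, Hist1h4h, Hist1h4i, Hist2h2aa1, Hist2h2aa2, Hist2h4 and Hist3h2a. Of all genes tested, 7.73% were higher in all 4 lines. No member was more than 2-fold lower in all 4 lines, against 2.49% of all genes tested. In shControl and shKDM4D alike, 7 members fell more than 2-fold, namely Hist1h2ab, Hist1h2af, Hist1h2ah, Hist1h2ak, Hist1h3b, Hist1h3c and Hist1h3g, against 6.26% of all genes tested. They encode H2A or H3 and lie in the Hist1 cluster, which holds 35 of the 44 counted members. Of these, Hist1h3c and Hist1h3g were more than 2-fold higher at day 5 in shMLL1, against 0.56% of all genes tested that went these opposite ways. Both reached the minimum of 10 reads only through the shMLL1 library of day 5, so this count is a description only. Hist1h4c, higher in each of the 4 lines, also reached the minimum only through that library. By class, 6 of the 9 H4 genes counted rose in shControl and none fell, while 4 of 8 H3 genes fell and none rose. Of all genes tested, 15.1% rose and 9.17% fell. These counts include Hist1h4n and Hist2h3c1, which shared 83.4 and 100% of their windows with other genes. In shControl, Hist1h4m and Hist1h4n summed to 2.15 and 2.05 RPKM on the 2 days, and Hist2h3c1 and Hist2h3c2 to 2.16 and 2.74. Hist1h3c and Hist1h3g fell from 10 reads each.

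Gene medians differed with the annotated 3′ end, but in shControl the summed reads did not follow them. Of the 20 counted members whose transcripts ran more than 100 bases past the stem-loop, 9 were higher and 1 lower at day 5 in shControl, with a median log2 ratio of 0.76. Of the 12 that ended within 100 bases of it, 4 were higher and 5 lower, with a median of -0.92. In shMLL1 these groups had 19 higher and 1 lower, with a median of 2.81, and 7 higher and none lower, with a median of 1.33. Of all genes tested, 15.1% were higher and 9.17% lower in shControl, with a median of 0.06. In shMLL1 these values were 23.1%, 7.18% and 0.21. Some members of both groups, such as Hist1h4a and Hist1h2ad, reached the minimum of 10 reads only through the shMLL1 library of day 5. The 6 whose transcripts stopped at the stop codon had medians of -0.58 in shControl and 0.93 in shMLL1, and the 6 that held no stem-loop, Hist1h2bc among them, had medians of 0.21 and 2.10. By summed reads over all members of a group, those ending within 100 bases rose 3.86-fold in shControl and those running past rose 3.14-fold. In shKDM4D, shNFIB and shMLL1 the order was reversed, at 3.57-fold, 3.4-fold and 7.19-fold against 4.25-fold, 5.59-fold and 7.6-fold. Hist2h2aa1 and Hist2h2aa2 held 1634 of the 1760 reads of the group ending within 100 bases in shControl on day 5. The groups overlapped in every line, and exceptions such as Hist2h2aa1 and Hist1h4h ended 35 and 46 bases past the stem-loop and rose. Longer models also collect more reads per transcript and from overlapping genes, and the part of this in the difference was not tested.

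**Figure D3:**
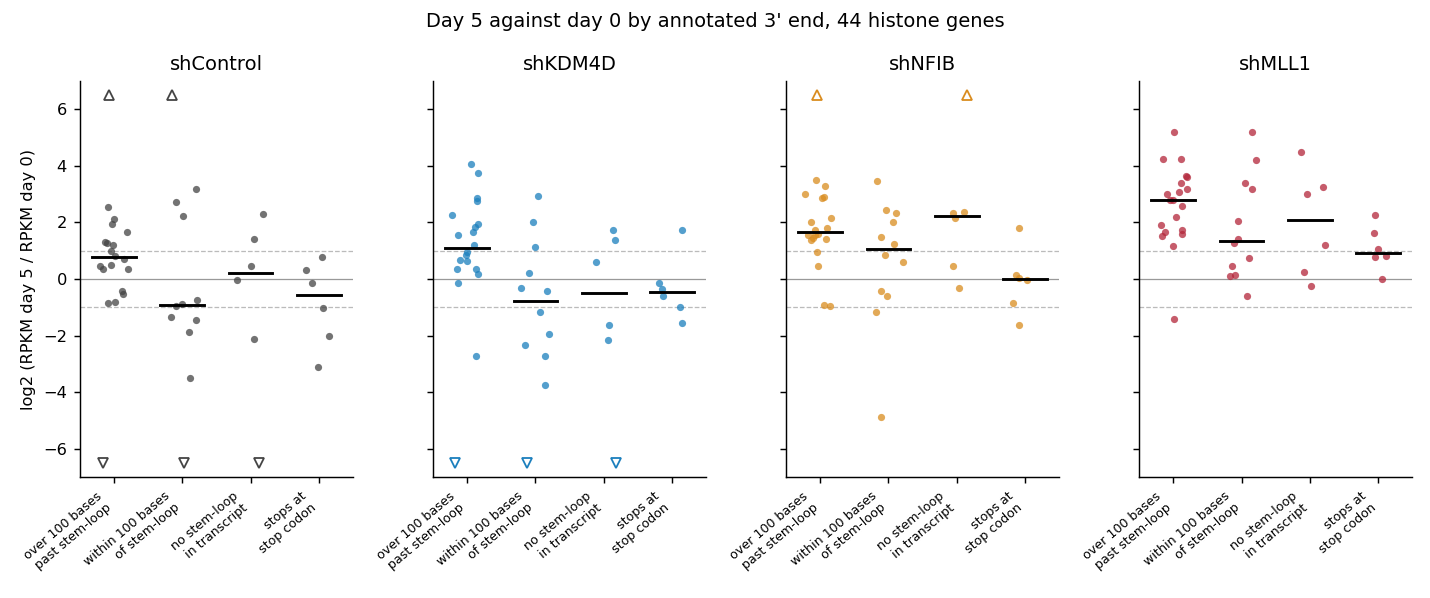
Log2 ratio of day 5 to day 0 RPKM (y axis) for the 44 counted histone genes, grouped by where the annotated transcript ends (x axis), in a panel per line. Points are genes, black bars are medians, dashed lines mark 2-fold and open triangles are genes with 0 reads on 1 of the days. In shControl the median is 0.76 for transcripts running over 100 bases past the stem-loop and -0.92 for those ending within 100 bases of it, and in shMLL1 both medians lie above 0.

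Divergent neighbours did not always have log2 ratios of the same sign. There were 13 pairs of members transcribed away from each other with at most 1000 bases between their starts, 12 of them H2A with H2B, and both partners were counted in 7. Hist1h2ac and Hist1h2bc, whose shared interval is printed above, both rose, with log2 ratios in shControl of 1.65 and 1.40 and in shMLL1 of 4.23 and 3.01. Their levels differed widely, with a mean of 2.34 RPKM for Hist1h2ac and 124 for Hist1h2bc. By contrast, Hist2h2ac and Hist2h2be on chromosome 3 had log2 ratios of -1.34 and 0.46 in shControl, -0.30 and 0.62 in shKDM4D, -0.61 and 0.46 in shNFIB, and -0.61 and 1.19 in shMLL1. Hist2h2ac had few reads on the 2 days, at 14 and 4, 10 and 9, 9 and 5, and 29 and 19 in that order of lines. Hist2h2be had 36 and 36, 17 and 29, 18 and 21, and 62 and 141. The contrast within this pair was not tested.

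On day 0 the knockdown lines lay near shControl. Of the 44 members, 4 were more than 2-fold higher and 3 lower in shKDM4D, against 2.7% and 5.7% of all genes tested. In shNFIB 4 were higher and 6 lower, against 4.08% and 7.49%, and in shMLL1 4 were higher and 3 lower, against 2.48% and 9.05%. Quantile normalization gave 7 and 3 in shMLL1, and no share of all genes is given for that setting. The higher genes in each line included Hist1h4n, Hist1h4c and Hist2h3c1, which were at 0, 0 and 10 reads in shControl. Summed with its near-copy, Hist2h3c1 had log2 ratios of -0.10, 0.06 and -0.09 and Hist1h4n of 0.09, -0.31 and 0.13 in shKDM4D, shNFIB and shMLL1. When near-identical copies were summed, 1, 2 and 2 were higher and 1, 4 and 0 lower in shKDM4D, shNFIB and shMLL1. These 3 comparisons share the shControl library of day 0. Among the abundant members, Hist1h1c was lower in shNFIB (9.07 against 21.9 RPKM, log2 -1.27, interval -1.47 to -1.07), and its log2 ratio was -0.83 in shKDM4D and -0.39 in shMLL1. Hist1h4i was 2.46-fold higher in shNFIB, at 5.08 against 2.07 RPKM. Hist2h3c2 was lower in shMLL1, with 19 reads against 53 in a shallower library, while summed with Hist2h3c1 it had a log2 ratio of -0.09 (interval -0.58 to 0.41).

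At day 5 shMLL1 stood above shControl for nearly the whole family. The log2 ratio was above 0 for all 44 members counted, from 0.26 upward, with a median of 1.66 beside 0.07 over all genes tested. Some of the 44 reached the minimum of 10 reads only through this shMLL1 library, so their place above shControl was partly set by the minimum. In shMLL1, 38 were more than 2-fold higher and none lower, against 6.38% and 4.82% of all genes. When the minimum of 10 reads was set without the shMLL1 library of day 5, 34 members passed and 28 of these were more than 2-fold higher. The median and the share of all genes under that minimum are not given here. Hist1h2bc was 2.77-fold higher (360 against 130 RPKM, interval 1.41 to 1.53 in log2). Hist1h2ai, an H2A gene that shares 89.3% of its windows with other genes, was at 33.6 against 10.5 RPKM. Several genes with few reads in shControl on day 5 had large ratios: Hist1h1b was 16.6-fold higher, at 131 reads against 4, Hist1h2ab was at 49 reads against 2, and Hist1h3g at 43 against 0. The smallest ratios were those of Hist2h2aa2, Hist2h2aa1 and Hist1h1c, at 1.2-fold, 1.32-fold and 1.6-fold. Thus 3 of the 4 most abundant members stayed within 2-fold of shControl, and Hist1h2bc did not.

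In shNFIB at day 5, 15 of the 44 were more than 2-fold higher and 1, Hist1h2ap, was lower, against 6.64% and 6.81% of all genes tested, with a median log2 ratio of 0.80 beside 0.09. Summed with its near-copy Hist1h2ao, Hist1h2ap was 2.63-fold higher instead, at 28 reads against 13 (log2 1.39, interval 0.40 to 2.47). Hist1h1b was 6.1-fold higher, with 20 reads against 4, and Hist1h2ab was at 18 reads against 2. Hist1h2af was 2.7-fold higher, at 9.81 against 3.63 RPKM. In shKDM4D at day 5, 7 were higher and 5 lower, against 2.58% and 5.96%, with a median of 0.16 beside 0.00. Hist1h1b had 18 reads against 4 (log2 2.01, interval 0.41 to 4.03), and Hist2h3c1 had 39 against 0, while Hist1h2ap and Hist1h2br had 0 and 1 reads against 13 and 12. Summed with their near-copies, the last pair did not differ beyond counting error, with 15 reads against 13 for Hist1h2ao and Hist1h2ap (log2 0.05, interval -1.13 to 1.24) and 88 against 76 for Hist1h2bq and Hist1h2br (log2 0.05, interval -0.41 to 0.51). These 3 comparisons share the shControl library of day 5, which held the lowest level of Hist1h1b and Hist1h2ab among the 8.

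**Figure D4:**
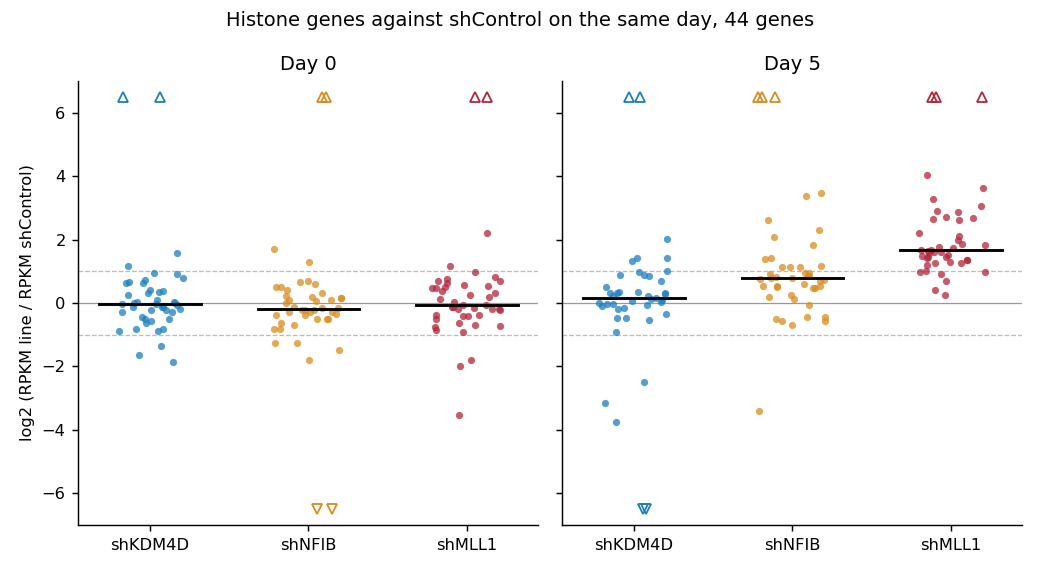
Log2 ratio of RPKM in each knockdown line to shControl on the same day (y axis) for the 44 counted histone genes, by line (x axis) and day (panel). Points are genes, black bars are medians, dashed lines mark 2-fold and open triangles are genes with 0 reads in 1 library. On day 0 the medians lie between -0.19 and -0.04, and on day 5 they are 0.16, 0.80 and 1.66 in shKDM4D, shNFIB and shMLL1.

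The highest of the 8 libraries was shMLL1 at day 5 for 38 of the 44 counted members and for 9 of the 23 others. The mean that selected the 44 includes this library, and 34 members pass when it is left out. The share of all genes tested that were highest in this library was not counted, so these counts are a description only. Exceptions among the counted genes were Hist1h2af, Hist1h2ak and Hist1h2ap, highest in shKDM4D on day 0, Hist2h3c1, highest in shKDM4D on day 5 but highest in shMLL1 on day 5 when summed with Hist2h3c2 (9.59 against 6.02 RPKM), Hist1h3c, highest in shNFIB on day 5, and Hist2h2ac, highest in shMLL1 on day 0. Members with the next ratios by the naming rule were scarce: Hist1h2ad went from 8 to 3 reads in shControl and from 1 to 37 in shMLL1, Hist1h3e from 8 to 8 and from 17 to 38, Hist1h3f from 11 to 6 and from 12 to 38, and Hist1h4a from 12 to 5 and from 15 to 43. All of them were above their day 0 level in shMLL1, but each reached the minimum of 10 reads only through the shMLL1 library of day 5.

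The 23 members with a mean below 10 reads were Hist1h1a, Hist1h1t, Hist1h2aa, Hist1h2ag, Hist1h2an, Hist1h2ao, Hist1h2ba, Hist1h2bb, Hist1h2bf, Hist1h2bj, Hist1h2bl, Hist1h2bm, Hist1h2bp, Hist1h3a, Hist1h3h, Hist1h3i, Hist1h4b, Hist1h4f, Hist1h4m, Hist2h2ab, Hist2h3b, Hist3h2ba and Hist4h4. No ratio is given for them. Hist1h2ba, the testis H2B gene, and Hist2h3b had 0 reads in every library, which at these depths does not show that they are silent. Hist1h2aa, the divergent neighbour of Hist1h2ba, had 1 read in all. Hist1h1t, the testis linker histone, was at most at 0.230 RPKM.

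S phase genes moved differently from the clustered histone genes at day 5. All 24 S phase genes listed were below their day 0 level in each line. Of these, 22, 20, 6 and 19 were more than 2-fold lower in shControl, shKDM4D, shNFIB and shMLL1. Among all genes tested, 9.17%, 9.03%, 5.38% and 7.18% were lower in these lines. The median log2 ratio of the 24 was -1.57, -1.30, -0.90 and -1.35. Pcna, the replication clamp, was at 86.4 and 36.2 RPKM in shControl and 102 and 45.2 in shMLL1, and Mki67, a proliferation marker, was at 76.7 and 30.1 in shControl and 113 and 31.6 in shMLL1. So in shMLL1 the reads on the clustered histone genes, which may miss messages without a poly(A) tail, and those on the S phase genes went opposite ways. At day 5 the S phase list was higher than in shControl in 23 of 24 genes in both shNFIB and shMLL1. In these lines 5 and 4 of the genes passed 2-fold, against 6.64% and 6.38% of all genes tested.

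Of 14 factors that transcribe or process histone messages, 4, 1, 1 and 3 were more than 2-fold lower at day 5 in shControl, shKDM4D, shNFIB and shMLL1. Among all genes tested, 9.17%, 9.03%, 5.38% and 7.18% were lower, so the single genes in shKDM4D and shNFIB lay near that share. The scarce Zfp473 was higher in shKDM4D, where 14.9% of all genes were. Slbp was at 12.1 and 6.85 RPKM in shControl, 12.1 and 8.44 in shKDM4D, 15.1 and 10.4 in shNFIB, and 13.5 and 8.38 in shMLL1. Casp8ap2, a histone locus body protein, was at 14.3 and 7.52 RPKM in shControl and 20.3 and 9.61 in shMLL1. Both were below their day 0 level in shControl and in shMLL1. Of 12 histone chaperones, 5, 6, 2 and 5 were lower, beside the same shares of all genes. Daxx was higher in shMLL1, where 23.1% of all genes were. Nap1l1, which carries H2A and H2B, was at 203 and 103 RPKM in shControl and 313 and 114 in shMLL1.

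Histone variants encoded outside the clusters, many of which are made throughout the cycle and carry poly(A) tails, mostly stayed within 2-fold between days. Of 11 genes, 2, 3, 0 and 1 were more than 2-fold lower and 0, 1, 0 and 2 higher at day 5. Among all genes tested, 9.17%, 9.03%, 5.38% and 7.18% were lower and 15.1%, 14.9%, 14.8% and 23.1% higher. H3f3b, which encodes H3.3, was at 170.0 and 269 RPKM in shControl and 199 and 426 in shMLL1. H1f0, the replacement linker histone, was at 106 and 179 RPKM in shControl and 112 and 312 in shMLL1. H2afz, which encodes H2A.Z, was at 87.1 and 36.2 RPKM in shControl and 99.3 and 50.9 in shMLL1.

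**Figure D5:**
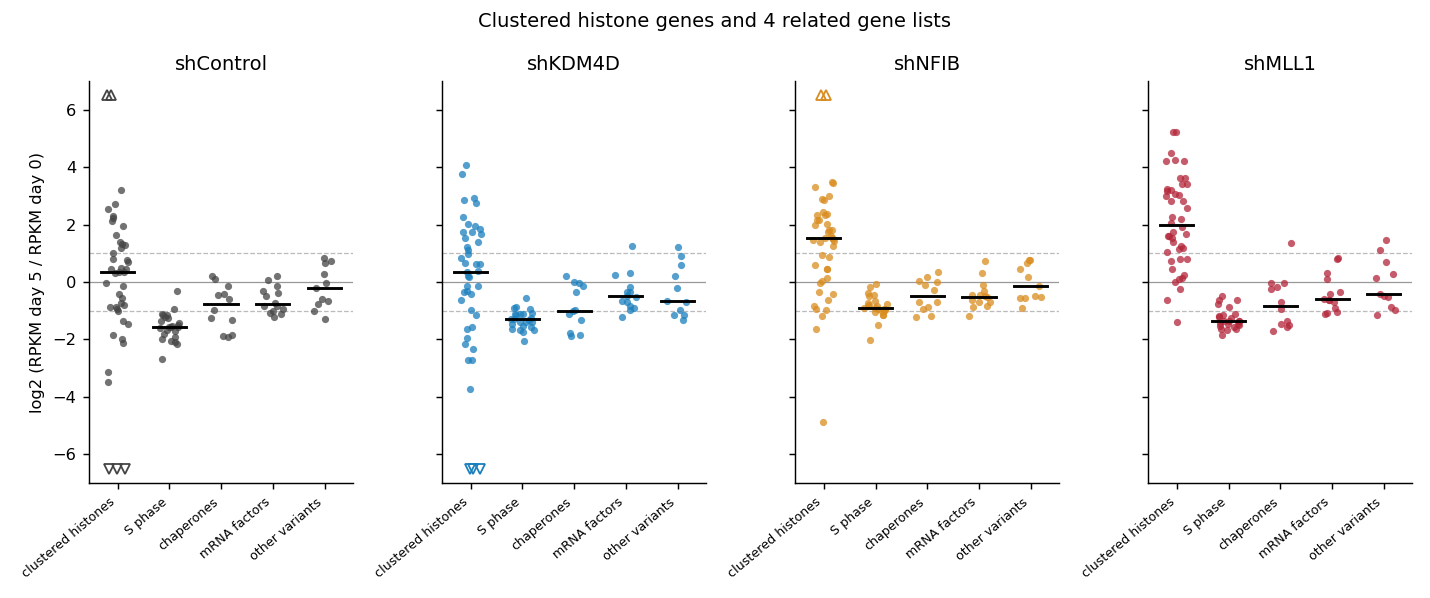
Log2 ratio of day 5 to day 0 RPKM (y axis) for the 44 counted clustered histone genes and 4 gene lists (x axis), in a panel per line. Points are genes, black bars are medians, dashed lines mark 2-fold and open triangles are genes with 0 reads on 1 of the days. The S phase medians lie at -1.57, -1.30, -0.90 and -1.35, below the clustered histone medians of 0.35, 0.36, 1.52 and 1.99.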

How the data were processed

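RNA from 8 libraries of C3H10T1/2 lines was sequenced on a HiSeq 2500 and, per the study's methods, mapped by the authors with CLC Genomics Workbench 11.0.1 to GRCm38 (mm10). The labels name an mRNA-Seq kit and the methods a stranded RNA-Seq kit, and how reads matching several genes were assigned is not given in the sources used here. The deposited RPKM values are reads per kilobase of exon, scaled to mapped reads, and quantile normalization is named in the methods. With GENCODE M21 exon lengths, 96.2 to 96.5% of values gave whole reads within 0.02, and so did all 536 values of the members, which set the depth at 15800000 to 38200000 reads. Groups followed the sample titles. With 1 library per condition there was no test: ratios are log2 of RPKM with nothing added, called beyond 2-fold, for genes with a mean of at least 10 reads, and intervals are exact (Clopper-Pearson) on the recovered reads. Where 1 side of a ratio had 0 reads, 3 reads stood in for 0 in printed lower bounds, of folds and of differences between changes. Shared windows are 75-base stretches of a member's exons found in another gene's annotated exons. The code was tested on simulated data (Python 3.11.15, pandas 2.3.3, scipy 1.17.1).

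Named members were the 12 of highest mean RPKM, the 6 highest and 6 lowest ratios between days in shControl, and the 3 highest and 3 lowest in each comparison with shControl, 27 in all. Up to 5 genes a list were named by mean RPKM. The members and lists were chosen with earlier results of these data known. The comparison of other genes' patterns with that of Hist1h2bc is not reported here.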

Additional observations from a re-analysis of the deposited data

Results flagged for a closer look

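Hist1h2ah went opposite ways between the days in different lines: it fell from 66 to 0 reads in shControl and rose from 0 to 15 in shNFIB, a difference of at least 6.56 between the log2 changes, with 3 reads in place of 0. It shared 90% of its windows with other genes, and 9 Hist1 H2A genes of this kind summed gave log2 changes of -1.23 in shControl and 0.16 in shNFIB. Hist1h3g fell from 9 to 2 reads in shKDM4D and rose from 18 to 43 in shMLL1, a difference of 3.57. It reached the minimum of 10 reads only through the shMLL1 library of day 5. Neither difference was tested, since each line had 1 library per day.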

How the results depend on the processing

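No ratio of a named member or class that passed 2-fold changed sign when 0.1 or 1 was added or the scaling was changed, but many counts moved with the genes counted. Counts are given between days in shControl, shKDM4D, shNFIB and shMLL1, then for shKDM4D, shNFIB and shMLL1 against shControl on day 0 and on day 5. No share of all genes is given for these settings, so the counts show only how far the members' counts moved. Without a minimum, over 67 members, the counts higher were 17, 18, 31 and 43 between days, 10, 7 and 14 on day 0 and 13, 24 and 54 on day 5, and the counts lower 21, 23, 7 and 5, then 9, 9 and 6, then 12, 2 and 0. With a mean of at least 50 reads, which left 17 members, the counts higher were 10, 12, 14 and 16 between days, 1, 1 and 0 on day 0 and 0, 1 and 13 on day 5, and the counts lower 1, 1, 0 and 0, then 0, 1 and 1, then 0, 0 and 0. With RPKM over 1 in at least 1 library, which left 53, the counts higher were 16, 18, 29 and 38 between days, 6, 4 and 8 on day 0 and 10, 20 and 45 on day 5, and the counts lower 16, 18, 4 and 2, then 7, 8 and 5, then 8, 2 and 0. With 1 added to every RPKM, the counts higher were 9, 10, 17 and 25 between days, 1, 1 and 1 on day 0 and 0, 6 and 27 on day 5, and the counts lower 4, 4, 1 and 0, then 1, 2 and 0, then 1, 1 and 0. After quantile normalization, the counts higher were 12, 15, 24 and 26 between days, 4, 4 and 7 on day 0 and 10, 17 and 37 on day 5, and the counts lower 18, 13, 7 and 2, then 3, 6 and 3, then 5, 1 and 0. Where the counting interval also had to leave out 0, the counts higher were 13, 15, 23 and 33 between days, 3, 3 and 2 on day 0 and 3, 11 and 37 on day 5, and the counts lower 6, 9, 1 and 1, then 3, 3 and 3, then 4, 1 and 0. In the 6 members with under 10% of windows shared, the counts higher were 2, 2, 3 and 5 between days, 0, 0 and 0 on day 0 and 1, 1 and 4 on day 5, and the counts lower 1, 0, 0 and 0, then 1, 1 and 0, then 0, 0 and 0. With the minimum set without the shMLL1 library of day 5, an alternative chosen after seeing the data that left 34, the counts higher were 14, 14, 19 and 24 between days, 3, 3 and 2 on day 0 and 4, 8 and 28 on day 5, and the counts lower 8, 7, 3 and 1, then 2, 2 and 1, then 2, 1 and 0. With near-identical copies summed, also chosen after seeing the data, which left 37 units, the counts higher were 13, 15, 22 and 29 between days, 1, 2 and 2 on day 0 and 6, 12 and 32 on day 5, and the counts lower 9, 9, 2 and 0, then 1, 4 and 0, then 3, 0 and 0. Adding 0.1 gave 2 higher in shKDM4D on day 0, and median-of-ratios scaling gave 5 lower between days in shNFIB; their other counts stayed within 1.5 times. Median-of-ratios scaling and quantile normalization moved the median of all genes between days in shMLL1 from 0.21 to 0.00 and -0.10 in log2. The cause of these differences was not tested. Summing near-identical copies, which was chosen after seeing the data, turned the sign of 10 named ratios. The log2 ratio became 1.39 for Hist1h2ap in shNFIB against shControl on day 5, 2.18 for Hist2h3c1 between days in shMLL1, and -0.10 and -0.09 for Hist2h3c1 in shKDM4D and shMLL1 on day 0. For Hist1h2br it became 1.23 between days in shKDM4D, 0.05 in shKDM4D on day 5, and 0.41 and 0.02 in shKDM4D and shMLL1 on day 0. For Hist1h2ah in shKDM4D and Hist1h2ad in shMLL1 on day 0 it became 0.27 and 0.11. Each comparison set 1 library against 1, so no replicates could be paired or left out. A fit of the day with the 4 lines as blocks was not run. Few reads and near-identical copies limit the single-gene ratios.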
